A study of Danio rerio with 3 samples.

Results

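The baseline described here is the set of transcripts in the intestine of control-fed adult zebrafish (Danio rerio), read from 1 of the 3 poly(A) RNA libraries of a study on banana-containing feeds. Its members are all genes of that library whose deposited level carries the status OK, 32510 of the 32519 gene identifiers measured, and each is ranked by its level. The control fish were healthy adults of 6 to 9 months that received the commercial feed Tetramin at 4% of body weight a day in 3 feedings for 8 weeks. Their intestines were taken on day 56 after 24 hours of fasting. The remaining 2 libraries came from fish given granules with banana pulp, and no level in them was read for this account. The sources used here do not give the strain, the number and sex of the fish behind the library or the stretch of intestine taken.

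The zebrafish has no stomach, so feed passes from the oesophagus into a wide anterior intestine, where pancreatic enzymes and bile act on it. Absorptive enterocytes of the anterior intestine take up fat, package it with apolipoproteins and export it as lipoprotein particles, while enterocytes further along take up whole protein and bile acids. Pancreatic tissue in the adult zebrafish is spread in small lobes through the mesentery along the gut, and the liver lies against it.

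Levels are in FPKM, fragments per kilobase of transcript scaled to all mapped fragments of the library, a scale on which genes of different length can be compared. With 1 library there are no replicates and no test, and every value after ± is the half-width of the 95% interval deposited with the level. Such an interval reflects the reads counted and how they were divided among genes, and holds no spread between fish. Levels of 2 genes are called apart where their intervals do not overlap. A low level of a cell type's gene in whole tissue can mean few cells of the type or little RNA in each, and these cannot be told apart.

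Few genes made up most of the measured RNA. The 32510 levels added up to 939239 FPKM, of which 25% came from 19 genes, 50% from 92, 75% from 387 and 90% from 1847. This total, the ranks and all shares lack 9 genes, several vitellogenins among them, that were set to 0 because too many reads fell there. Where those genes would rank is not known. At 1 FPKM or more stood 12486 genes, or 38.4%, while 4929 reached 10 FPKM, 889 reached 100 and 176 reached 1000. Those 176 genes, 0.541% of all, held 63.2% of the FPKM. The median gene stood at 0.254 FPKM, the median of genes at 1 FPKM or more was 6.54, and 11472 genes (35.3%) were listed at 0. The 38.4% covers every identifier, also 11471 with no match by symbol in RefSeq's gene table, of which 1483 reached 1 FPKM. Of the 20495 matched to a protein-coding gene, 10911 did. The 38.4% is therefore a low baseline for named genes, and counts of list members below are to be read beside both. Half-widths shrank with the level for some genes only: of the 176 highest genes, 90 had a half-width between 4% and 5% of the level and 14 had one under 1%.

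**Figure D1:**
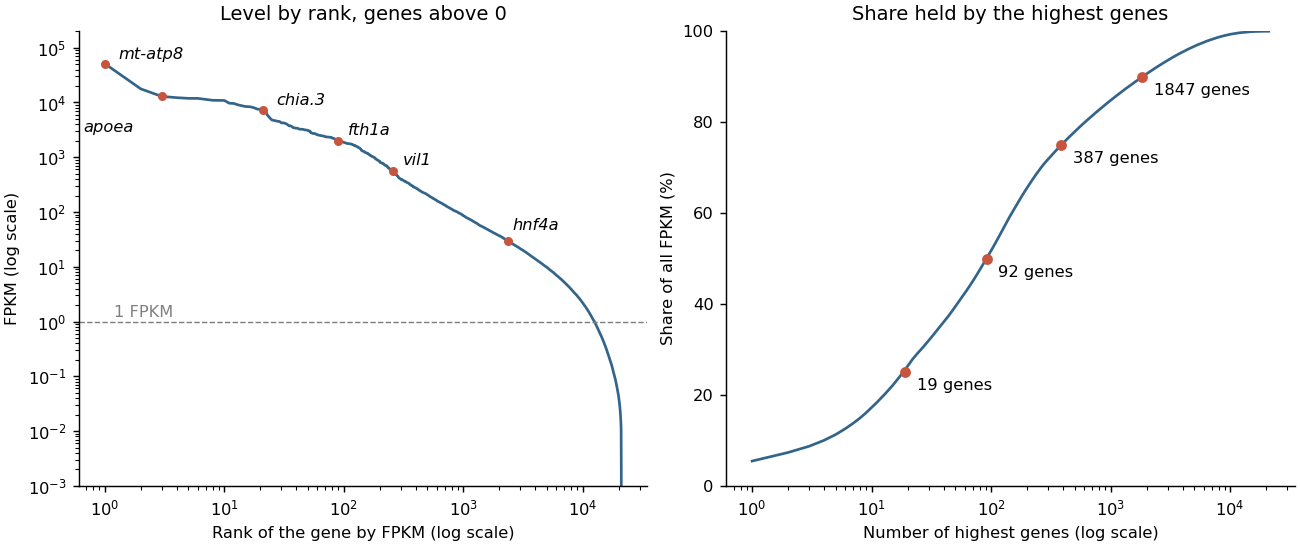
Left, the FPKM of each gene above 0 against its rank, both on log scales, with 6 genes marked and a dashed line at 1 FPKM. Right, the share of all FPKM held by the highest genes, where 92 genes reach 50% and 1847 reach 90%.

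The highest genes belonged to a handful of functions. The mitochondrial gene mt-atp8, for a small subunit of ATP synthase, came highest at 51138 ± 5729 FPKM, and mt-co2, a subunit of cytochrome c oxidase, followed at 17728 ± 95. The level of mt-atp8 rests on a locus of 165 bases, and its neighbour mt-atp6, whose coding region overlaps it, was listed at 7533 ± 317 FPKM. Whether the short locus plays a part in that difference was not tested. Next came apoea, an apolipoprotein E gene, at 12899.8 ± 535 FPKM, fabp1b.1, a liver-type fatty acid binding protein, at 12256 ± 106, and apoa1a, the main protein of high-density lipoprotein, at 11899 ± 60.5. The intervals of apoea and fabp1b.1 were just apart, while the interval of apoa1a lay below both. The cytochrome c oxidase genes mt-co3 and mt-co1 had 11883 ± 495 and 9598 ± 40.5 FPKM. Digestive enzymes of the pancreas stood beside them.

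Of these, the trypsin gene prss59.1 had 11363 ± 64.9 FPKM, an elastase gene named CELA1 in the files had 10971 ± 340.4, and the trypsin gene prss59.2 had 10928 ± 62.1. The ileal bile acid binding protein fabp6 reached 10894 ± 97.8 FPKM. Below it, the galectin gene lgals2b had 9067 ± 383 FPKM, the ribosomal protein gene RPL41 8736 ± 97.2 and afp4, a relative of the type IV antifreeze proteins, 8445 ± 356. Cellular retinol-binding protein rbp2a stood at 7909.6 ± 64.9 FPKM. The chitinase chia.3 had 7321 ± 299.5, the cytoplasmic actin actb2 4790.1 ± 189.9 and the mitochondrial ADP/ATP carrier slc25a5 4695 ± 196. Genes of energy supply, fat handling, pancreatic digestion and protein synthesis shared the upper ranks.

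**Figure D2:**
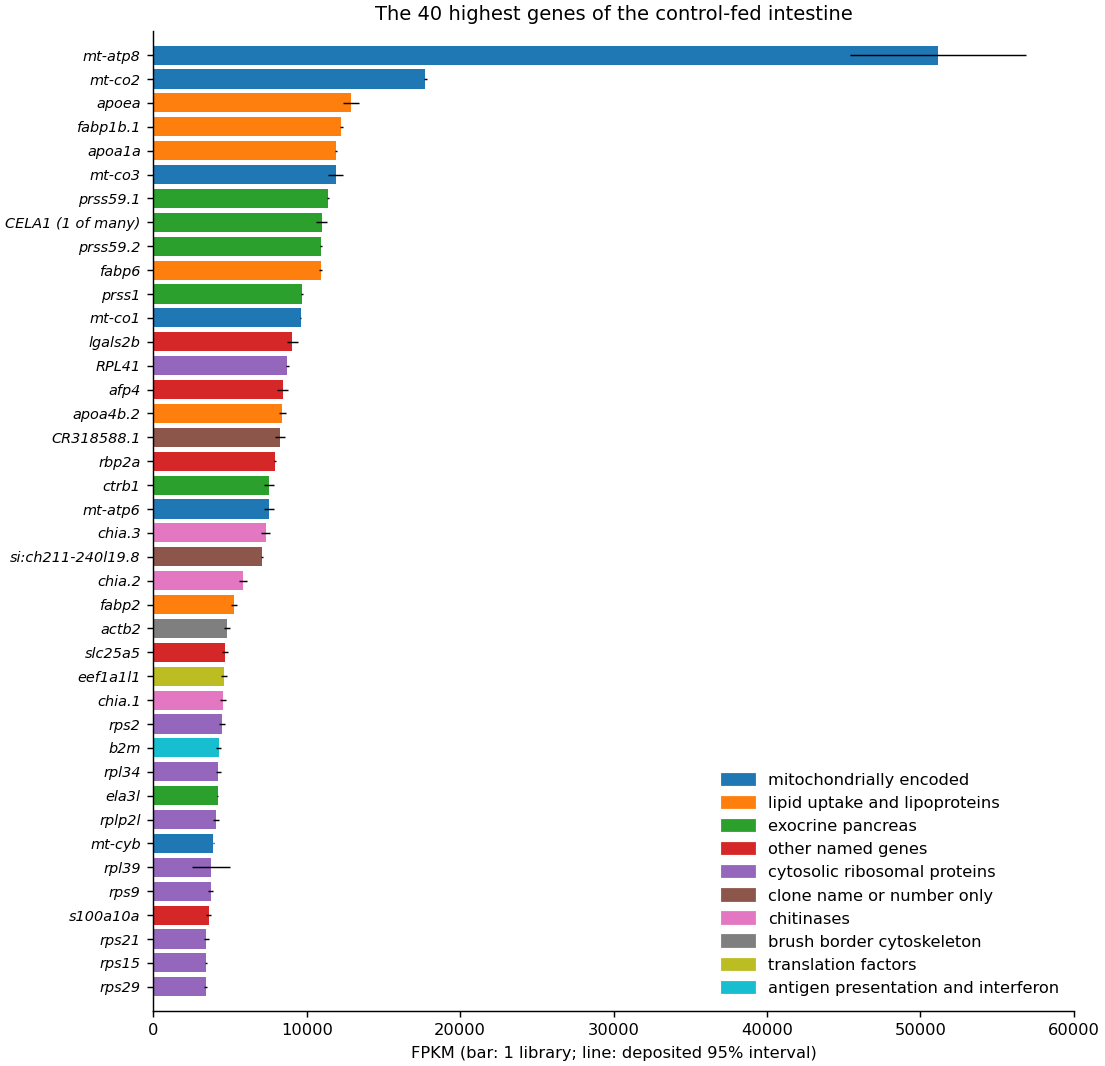
FPKM of the 40 highest genes of the control library as bars from 0, with the deposited 95% interval as a line and the class of each gene as colour. Mitochondrial, lipid-handling and pancreatic genes fill most of the upper rows and ribosomal protein genes most of the lower ones, and the interval of rpl39 is wide.

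When each gene was put in 1 class, the 88 cytosolic ribosomal protein genes held the largest share of FPKM among the classes with a named function, 19.1% ± 0.158. All 88 reached 1 FPKM, and 48 of the 100 highest genes were among them. That order was read on the FPKM scale. Effective fragments are the squared ratio of a level to the SD read from its interval. On that scale pancreas genes held 7.39%, mitochondrially encoded genes 5.96%, ribosomal proteins 4.73% and lipid genes 4.36%. These are not counted reads: for the many high genes with a half-width of 4% to 5%, the interval sets the number whatever the level. Mitochondrially encoded genes held 12.1% ± 0.614, of which mt-atp8 alone made 5.44% of all FPKM. Genes of fat uptake and lipoproteins held 8.44% ± 0.0722 in 59 genes, and exocrine pancreas genes 8.06% ± 0.0548 in 43 genes. The nuclear genes of the respiratory chain held 3.58%, translation factors 2.07%, chitinases 1.90%, the cytoskeleton of the brush border 1.87%, and antigen presentation 1.15%. Genes with only a clone name or number held 8.75%, and the 18417 other named genes 31.5%.

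**Figure D3:**
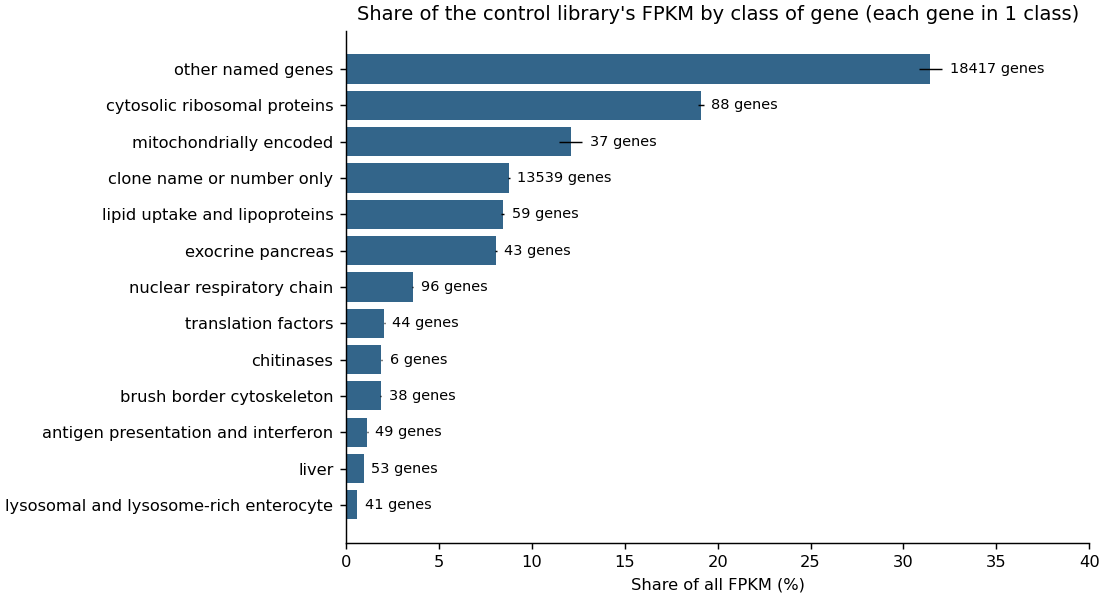
Share of all FPKM by class of gene, each gene counted in 1 class, with the half-width from the deposited intervals as a line and the number of genes beside each bar. Ribosomal proteins (19.1%), mitochondrially encoded genes (12.1%), lipid genes (8.44%) and exocrine pancreas genes (8.06%) are the largest classes with a named function.

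Fat absorption was represented by most of its listed genes, though the 3 highest held 89.3% of the list's FPKM. In the list for dietary lipid uptake and triglyceride resynthesis, 31 of 34 genes reached 1 FPKM and the median was 43.8 FPKM, beside 38.4% and 0.254 FPKM over all genes. Free fatty acids are bound in the enterocyte by fatty acid binding proteins, and here fabp1b.1 stood above the intestinal form fabp2 at 5246 ± 219 FPKM. The bile acid binding protein fabp6, of the same family, is counted on this list too, and its ratio to fabp2 was 2.08. Upstream of the fatty acid binding proteins, the scavenger receptor cd36 had 604 ± 9.08 FPKM. The bile salt-activated lipases cel.2 and cel.1, which come from the pancreas, had 805 ± 10.6 and 425 ± 19.1 FPKM.

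Lipoprotein genes stood higher still. Of 27 genes in that list, 24 reached 1 FPKM, 15 reached 100 and the median was 242 FPKM. Apolipoprotein A-IV, which enterocytes add to chylomicron-type particles, was led by apoa4b.2 at 8402 ± 238 FPKM. The smaller exchangeable apolipoproteins apoa2 and apoc1 had 2409 ± 99.5 and 2244 ± 73.3 FPKM. Apolipoprotein B, the single large scaffold protein of each particle, was supplied by apobb.1 at 533 ± 21.9 FPKM. Its paralogs apoba and apobb.2 stood at 2.82 ± 0.215 and 1.28 ± 0.203 FPKM, so 1 gene held 99.2% of the family's FPKM. The gene apoa2 was also the highest of the liver list, and liver transcripts were in this library. The liver's part in the levels of the lipoprotein genes was not tested.

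Genes that recover bile acids, a task of the distal small intestine in mammals, were present. Beside fabp6, the sodium-dependent bile acid importer slc10a2 had 93.8 ± 3.58 FPKM, and slc10a1, the importer of liver cells, had 0.067 ± 0.224. The nuclear receptor nr1h4 (FXR), which senses bile acids, had 23.9 ± 1.7 FPKM, and nr0b2a, a repressor that acts below it in mammals, had 66.5 ± 2.26. The export subunit slc51a had 17.4 ± 1.84 FPKM. Bile acid synthesis genes, which work in the liver, were also present, with cyp7a1 at 36.4 ± 2.13 and cyp8b1 at 19.7 ± 1.58 FPKM.

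Retinoid and carotenoid genes were led by rbp2a, which holds retinol inside enterocytes. After it came rbp4, the retinol carrier of plasma made mostly by the liver, at 706 ± 31.9 FPKM, then cd36, already given with fat uptake, and the retinol dehydrogenase dhrs9 at 171 ± 5.8. The carotene-cleaving oxygenases bco1 and bco1l had 95.6 ± 5.41 and 90.7 ± 5.13 FPKM, with overlapping intervals, while bco2a, which cuts carotenoids off centre, had 7.91 ± 0.676. The retinoic acid-degrading enzyme cyp26a1 stood at 78.5 ± 4.63 FPKM. In all, 31 of 46 genes (67.4%) on this list reached 1 FPKM, beside 38.4% of all genes.

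Final digestion takes place at the brush border, where enzymes anchored in the apical membrane cut peptides and sugars. On that list 22 of 26 genes reached 1 FPKM and 12 reached 100. Aminopeptidase N (anpepb) had 561 ± 6.38 FPKM and glutamyl aminopeptidase (enpep) had 252 ± 4.44. The meprin chains mep1b and mep1a.1 had 223 ± 10.4 and 178 ± 8.77 FPKM. Alkaline phosphatase, used as a mark of the apical surface, was represented by alpi.2 at 162 ± 7.51 FPKM, while alpi.1 stood at 0.0352 ± 0.207.

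Solute carriers are the membrane transporters of small molecules. Among 400 genes taken by an slc symbol, not all of them transporters, 222 (55.5%) reached 1 FPKM and 11 reached 100. At 1 FPKM or more were 38.4% of all genes, and 10911 of the 20495 that RefSeq lists as protein-coding. The last share is near that of the slc genes. Over all genes 2.73% reached 100 FPKM, so at that level the slc genes stood near the share of all genes. The highest that is not mitochondrial was slc13a2, a sodium-coupled carrier of dicarboxylates, at 564 ± 7.28 FPKM. The glucose importer slc5a1 had 334 ± 14.8 FPKM and the phosphate importer slc34a2a had 331 ± 5.57. Of the carriers for protein products, the amino acid exchanger chain slc3a2a had 207 ± 9.88 FPKM, the peptide importer slc15a1b 165 ± 3.92 and the neutral amino acid importer slc6a19b 141 ± 3.68. The basolateral sugar carrier slc2a2 had 41.1 ± 2.54 FPKM, so slc5a1 stood 8.11-fold above it. The fructose carrier slc2a5 had 30.4 ± 1.89 FPKM.

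Water and ions follow the nutrients. The sodium pump was represented by its alpha chains atp1a1a.1 at 284 ± 15.8 and atp1a1a.4 at 198 ± 9.02 FPKM and its beta chain atp1b1a at 462 ± 20.3. Aquaporins, the water channels, were led by aqp8a.2 at 150.4 ± 8.69 FPKM, with aqp12 at 106 ± 5.59. The chloride-bicarbonate exchanger slc26a3.2 had 63.8 ± 3.56 FPKM. None of the 5 listed sodium-proton exchangers reached 1 FPKM, and the highest, slc9a1b, stood at 0.409 ± 0.842.

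Enzymes of sugar metabolism were led by gapdh, of glycolysis, at 2215 ± 93.5 FPKM. The pyruvate kinase pklr, the isoform best known from liver, had 277 ± 6.35. Gluconeogenic enzymes were present as well: pck1, which makes phosphoenolpyruvate, had 501 ± 21.5 FPKM, fructose bisphosphatase fbp1b had 292 ± 14, and g6pca.2, a glucose-6-phosphatase, had 286 ± 13. Of 14 genes on the gluconeogenesis list 12 reached 1 FPKM. The same enzymes are abundant in liver, whose transcripts were also in this library, and its part in these levels was not tested.

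Lipid synthesis was uneven. The fatty acid desaturase fads2 had 947 ± 36.3 FPKM, and the next gene of its list, the elongase elovl1b, had 67.2 ± 3.94. On the list for cholesterol synthesis and uptake 34 of 37 genes reached 1 FPKM, led by the synthesis genes msmo1 at 153 ± 4.97 and hmgcs1 at 97.6 ± 4.88. For fatty acid oxidation the count was 30 of 33, led by the medium-chain dehydrogenase acadm at 273 ± 13 FPKM. The median of the oxidation list was 53.6 FPKM and that of the synthesis list 4.50.

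Metal handling was led by storage and buffering proteins. The ferritin heavy chain fth1a had 1991 ± 85.2 FPKM and metallothionein mt2 had 892 ± 24.1. The iron importer slc11a2 and the exporter slc40a1 had 40.9 ± 2.52 and 44.6 ± 1.65 FPKM, with overlapping intervals. Plasma transferrin, tfa, is a liver product and had 1776 ± 49.6 FPKM.

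Defence against foreign and reactive compounds was broad. Of 84 xenobiotic genes 69 (82.1%) reached 1 FPKM, beside 38.4% of all genes. The intestinal cytochrome P450 of the zebrafish, cyp3a65, was highest at 611 ± 8.76 FPKM. Sulfotransferases came next, among them sult3st2 at 212 ± 6.71 and sult2st2 at 157 ± 6.57 FPKM. The antioxidant list had 51 of 58 genes at 1 FPKM. It was led by glutathione transferase gstp1 at 1917 ± 25.7 FPKM, selenoprotein P (selenop) at 1875 ± 78.3 and the microsomal transferase mgst3a at 1189 ± 41.3. The peroxidases gpx1b and gpx4a followed at 1119.9 ± 20.2 and 985 ± 44.2 FPKM.

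The 3 chitinase genes chia.1, chia.2 and chia.3 had 4536 ± 187, 5850.2 ± 243 and 7321 ± 299.5 FPKM. Acidic chitinases cut chitin, the polymer of crustacean and insect shells, and also occur in the digestive tract of mammals. Together with chia.6 at 151 ± 4.48 FPKM and 2 lower genes they held 1.90% of all FPKM. The intervals of chia.3, chia.2 and chia.1 were apart from each other, with chia.3 1.61-fold above chia.1.

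Lysosome-rich enterocytes of the posterior intestine engulf dietary protein and digest it inside the cell. Their endocytic receptor parts cubn, amn and dab2 had 12.2 ± 0.497, 26.9 ± 2.06 and 93.9 ± 4.25 FPKM, and the protease cathepsin B gene ctsbb had 786 ± 44.8. Of 30 genes on the list for these cells 29 reached 1 FPKM, with a median of 57.3 FPKM. Among the lysosomal proteases, cathepsin L (ctsl.1) was highest at 1598 ± 65.5 FPKM and legumain (lgmn) had 502 ± 21.9. Lysosomal proteases also occur in macrophages, and the division between the cell types was not tested. The genes of fat absorption and the receptors of protein uptake thus appear in 1 library, whose stretch of gut is not given.

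The epithelium itself was marked by keratins, junction proteins and the actin core of microvilli. Villin (vil1), which bundles that core, had 554 ± 23.3 FPKM, and cdh17, the cadherin of the gut lining, had 407 ± 17.6. Keratins krt92, krt4 and krt97 had 1083 ± 46.7, 808 ± 8.94 and 631 ± 10.6 FPKM. Among 34 claudins, the seal proteins of tight junctions, 14 (41.2%) reached 1 FPKM. That share was near the 38.4% of all genes and below that of protein-coding genes. The highest claudin was cldn15la, of the cation-conducting claudin-15 group, at 792 ± 16.1. Thymosin tmsb4x, which binds free actin, had 3223 ± 131 FPKM. All 9 defining markers of absorptive enterocytes, the cells that line the labelled organ, lay between 162 and 11899 FPKM.

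Transcripts of secretory cells of the epithelium stood far lower, apart from a few products. The goblet cell gene agr2, whose product helps fold mucins, had 322 ± 16.1 FPKM, while the transcription factor spdef, SPDEF in the files, had 1.27 ± 0.616. The membrane mucin muc13b of the same list had 802 ± 9.45 FPKM, and its division between goblet cells and enterocytes was not tested. The secreted gel mucin genes of the list were near 0, with the highest, muc5.3, at 2.42 ± 4.25 FPKM, and muc2.1 was not matched to a symbol. Among gut hormones, pyyb (peptide YY) reached 219.8 ± 11.1 FPKM, mlnl (motilin-like) 44.7 ± 5.3, ghrl (ghrelin) 29.3 ± 4.36 and ccka (cholecystokinin) 13.1 ± 2.36. Of the other markers set for enteroendocrine cells, the granule protein gene scg3 had 10.7 ± 1.04 FPKM, while the transcription factors neurod1 and pax6b stood below 1 FPKM at 0.67 ± 0.259 and 0.207 ± 0.124. BEST4-type cells gave best4 at 4.46 ± 1.12 and otop2 at 6.14 ± 0.912 FPKM. Neither tuft-type marker reached 1 FPKM: pou2f3 had 0.634 ± 0.301 and trpm5 0.582 ± 0.337.

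Dividing cells left a moderate trace, with pcna at 133 ± 4.91 FPKM, top2a at 4.93 ± 0.642 and mki67 at 3.61 ± 0.316. On the proliferation list 36 of 37 genes reached 1 FPKM, at a median of 7.35. Regional and epithelial transcription factors were led by elf3 at 57.6 ± 3.6 FPKM. The enterocyte regulators hnf4g, hnf4b and hnf4a had 53.2 ± 2.99, 31.9 ± 2.48 and 29.5 ± 1.97 FPKM, and the intestinal identity genes cdx1b, cdx4 and cdx1a had 24.6 ± 1.02, 17.3 ± 1.65 and 12.3 ± 0.843. Of the hox genes, which set position along the body, 18 of 48 (37.5%) reached 1 FPKM, and hoxc3a led at 10.6 ± 1.74. Their share was close to the 38.4% of all genes and below that of protein-coding genes.

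The mesenchyme was represented mainly by smooth muscle, with tagln at 179 ± 10, acta2 at 170.0 ± 8.04 and myh11a at 8.46 ± 0.745 FPKM. Fibroblast collagens col1a1a and col1a2 had 6.7 ± 1.28 and 5.8 ± 0.483 FPKM. Endothelial markers were lower, with kdrl at 1.74 ± 0.264, cdh5 at 0.874 ± 0.17 and pecam1 at 0.305 ± 0.113 FPKM. Enteric neurons gave ret at 1.83 ± 0.311, phox2bb at 0.255 ± 0.208 and elavl4 at 0.0521 ± 0.185 FPKM, and the pacemaker cells of Cajal gave kita at 0.703 ± 0.222 and ano1 at 0.064 ± 0.0739. The vasoactive intestinal peptide gene vipb stood out in the neuronal list at 21.6 ± 2.96 FPKM. Only 5 of 33 genes (15.2%) on that list reached 1 FPKM, beside 38.4% of all genes.

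Immune genes were dominated by antigen presentation. Beta-2 microglobulin (b2m), the shared chain of class I molecules, had 4248 ± 177 FPKM, the class II chaperones cd74a and cd74b had 1461 ± 56.2 and 934 ± 15.9, and the class I gene mhc1uba had 1205 ± 51.1. Of 49 genes on this list 43 reached 1 FPKM. The chemokine ccl19b had 769 ± 18.7 FPKM and ccl25a, which in mammals draws lymphocytes to the small intestine, had 45.6 ± 1.42, with its receptor ccr9a at 29.1 ± 2. The lectin mbl2 had 795 ± 26.7 FPKM.

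Markers of the immune cells themselves were lower than these. The immunoglobulin M heavy chain, listed in the files under ighv1-4, had 112 ± 5.77 FPKM and cd79a 13.4 ± 2.69. The B cell regulator pax5 stood at 0.867 ± 0.468 FPKM. T cell markers lck, cd4-1 and cd8a had 5.96 ± 0.877, 5.96 ± 0.903 and 1.86 ± 0.618 FPKM. The macrophage gene mpeg1.1 had 40 ± 2.54 FPKM, but the macrophage receptor csf1ra stood at 0.621 ± 0.223. The neutrophil peroxidase mpx had 24.7 ± 1.52 FPKM. Haemoglobin from blood was led by hbba1 at 92.3 ± 8.01 and hbaa1 at 56.9 ± 5.59 FPKM. Another identifier under hbba1 had 37.5 ± 4.84 FPKM, and the erythrocyte marker alas2 had 1.03 ± 0.364. None of the 3 thrombocyte markers reached 1 FPKM.

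Most genes of protein synthesis and of respiration were well above the median of all genes. The median was 1952 FPKM for ribosomal proteins, 149.7 for translation factors, of which 40 of 44 reached 1 FPKM, and 212 for nuclear respiratory chain genes. The elongation factors eef1a1l1 and eef2b had 4608 ± 192 and 1752 ± 12.2 FPKM, and the ribosomal proteins rps2, rpl34 and rplp2l had 4495 ± 189, 4242 ± 189 and 4079.7 ± 182. The level of rpl39 was uncertain, at 3744 ± 1254 FPKM. Of the 13 mitochondrial protein genes, mt-nd5, the lowest, had 704 ± 30.7 FPKM and mt-cyb had 3907 ± 31.1. The gene mt-nd6 lies on the opposite strand from the others, and its 2162 ± 98.8 FPKM cannot be told apart from reads of the other strand if strand was not recorded. Of 96 nuclear respiratory chain genes 90 reached 1 FPKM, led by atp5mc3b at 1651 ± 81 and cox6a2 at 1609 ± 75.7. The 57 genes for folding and secretion in the endoplasmic reticulum all reached 1 FPKM, led by sec61g at 1277 ± 63.3.

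Zebrafish carry many gene copies from a genome duplication in the ancestor of teleost fishes and from later tandem duplications. The copy with the highest level can be named for this library, which also holds pancreas and liver transcripts. Whether it is the copy used by gut cells was not tested. In 55 families the leading member held 90% or more of the family's FPKM in 17 families, 50% to 90% in 27 and under 50% in 11. The median share of the leader was 79.8%. Families held from 2 to 34 measured genes, and a leader of 2 cannot hold under 50%, so these shares depend on family size. Intervals of the leader and the next member were apart in 50 families. In effective fragments 16 of the 55 families had another leader, and these families are named with the values that follow. Effective fragments depend on the width of the interval, so such a turn does not show which copy had more reads. Where copies of a family share reads, the division between them is uncertain beyond the printed half-widths, and the identity of the copies was not measured.

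In several families 1 copy held nearly all of the family's FPKM in this library. Cellular retinol binding was supplied by rbp2a, 742-fold above rbp2b at 10.7 ± 1.67 FPKM. Peptide YY came from pyyb, with pyya listed at 0, and insulin from ins, with insb listed at 0. Villin came from vil1, while vill stood at 0.22 ± 0.147 FPKM. Elongation factor 2 was supplied by eef2b, 120-fold above eef2a.1 at 14.6 ± 1.22 FPKM, and galectin by lgals2b, with lgals3a next at 101 ± 5.67.

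Other families were led by 1 copy with a substantial partner. Apolipoprotein A-I was apoa1a at 8.49-fold the level of apoa1b, which still had 1401 ± 60.6 FPKM. Apolipoprotein E was apoea at 7.80-fold the level of apoeb, at 1653 ± 51.8. The order turned in effective fragments, which depend on interval width, and apoea held 36.3% of them beside 88.6% of the FPKM. Aminopeptidase N was anpepb at 4.16-fold anpepa, with 135 ± 3.05 FPKM. The peptide importer slc15a1b stood 4.30-fold above slc15a1a at 38.3 ± 2.46, and cathepsin B was ctsbb with ctsba at 136 ± 7.56. That order turned as well, with ctsbb at 48.9% of the effective fragments beside 85.3% of the FPKM. Actin was divided between actb2 and actb1, at 2364 ± 98.9 FPKM, with a ratio of 2.03.

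Other functions were shared by several members of a family. The trypsins were close to even: prss59.1, prss59.2 and prss1, at 9710.5 ± 58.9 FPKM, held 35.5%, 34.1% and 30.3% of the trypsin FPKM. In effective fragments prss59.2 led narrowly, with prss59.1 at 34.5%. Fatty acid binding proteins were divided among fabp1b.1 (40.9%), fabp6 (36.3%) and fabp2 (17.5%). The elastases were led by CELA1 with 53.3% of their FPKM, 2.61-fold above ela3l, but CELA1 held 4.63% of the effective fragments and ela3l led there. Pancreatic carboxypeptidases were divided between cpb1 at 1217 ± 43.8, cpa5 at 1041 ± 14.5 and cpa1 at 452 ± 21.4 FPKM. In effective fragments cpa5 led them, and cpb1 held 9.40%. The proglucagons gcgb and gcga, at 27.1 ± 4.2 and 22.9 ± 2.65 FPKM, and the somatostatins sst2 and sst1.1, at 42.5 ± 6.04 and 39.6 ± 4.45, had overlapping intervals within each pair, and gcga and sst1.1 led in effective fragments. Of the other families, another member led on that scale for amylases, chymotrypsins, carotenoid oxygenases, sodium pump alpha chains, aquaporins, sodium-proton exchangers, gut mucins, phosphoenolpyruvate carboxykinases and heat shock protein 90.

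**Figure D4:**
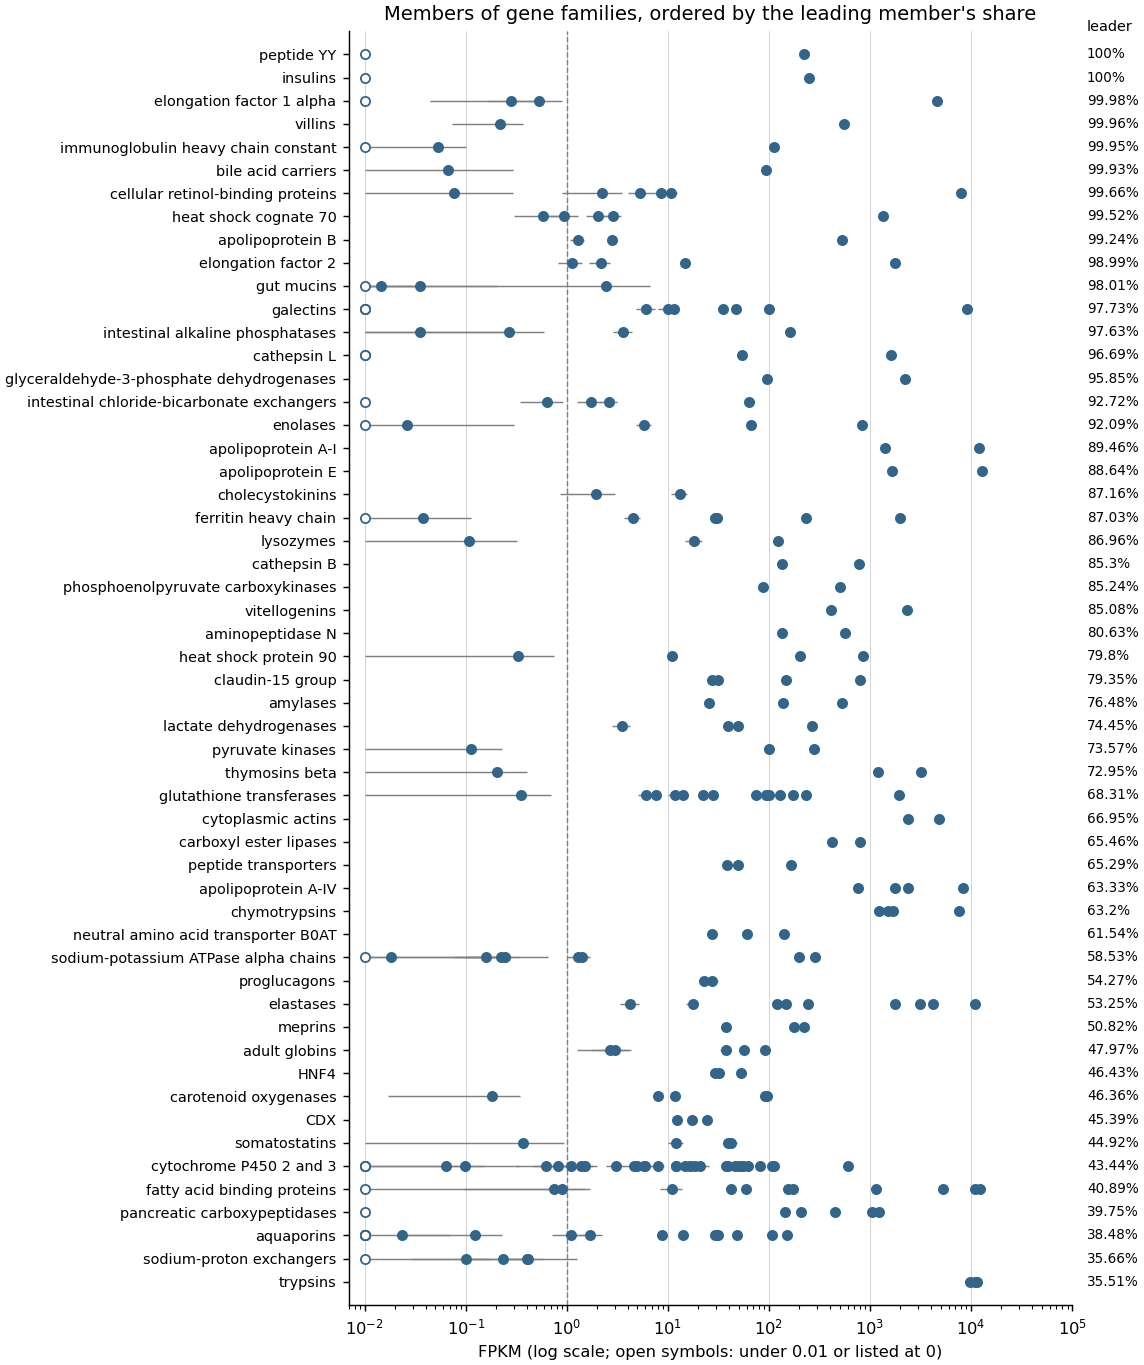
FPKM of each member of the gene families shown, on a log scale, with deposited 95% intervals as lines and open symbols for levels under 0.01 FPKM or listed at 0. Families are ordered by the share of the leading member, printed at the right, from 100% for insulins and peptide YY to 35.5% for trypsins.

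Beyond the chosen families, 2809 pairs of genes had symbols that differ only in a final a or b, the usual mark of duplicated zebrafish genes, and 1778 of them summed to 1 FPKM or more. In 739 of these pairs (41.6%) 1 copy held 90% or more of the sum, in 315 (17.7%) it held 99% or more, and in 220 (12.4%) the higher copy held under 60%. The median share of the higher copy was 85.3%. The lower copy still reached 1 FPKM in 882 pairs (49.6%). Intervals of both copies were apart in 1534 pairs (86.3%), and the a copy was the higher in 967 (54.4%). Some such symbol pairs are not duplicates but named after different human genes, clta and cltb among them. Their number was not counted, and the shares given here include them. Of the 1778 pairs, 736 had 1 shared symbol in the gene name table.

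At each level of the pair the share was similar: 41.5% of the 933 pairs that summed to 1 to 10 FPKM were held at 90% or more by 1 copy, as were 44.3% of the 149 pairs at 100 to 1000 FPKM. Pairs with slc symbols were more one-sided by count, with 31 of 50 pairs (62.0%) at 90% or more. Near-exclusive pairs with the highest sums included fth1a over fth1b at 4.51 ± 0.848 FPKM and rps8a, at 1922 ± 65.6, over rps8b at 1.63 ± 0.597. Further such pairs were fabp10a over fabp10b at 0.739 ± 0.774, muc13b over muc13a at 0.00713 ± 0.0143, and the mitochondrial phosphate carrier slc25a3b, at 612 ± 27.4, over slc25a3a at 0.0481 ± 0.139. The cytochrome c gene cycsb had 601 ± 13.8 FPKM with cycsa listed at 0. In contrast, rpl5a and rpl5b were nearly even, at 1015 ± 16.9 and 971 ± 16.4 FPKM.

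Some of the highest genes lie side by side. In 5 chromosomal stretches 3 or more genes of at least 300 FPKM followed each other with gaps of at most 50 kb, and these 22 genes held 7.72% of all FPKM. The first, chr16:23913943-23994642 (GRCz11), holds 8 of them and 2.20% of the FPKM: apoa4b.1 at 1747 ± 71, BX004983.1, which the gene name table calls apoa4b.3, at 2365 ± 101, si:dkey-7f3.14 at 316 ± 17.9, apoa4b.2, apoeb, apoc1, apoa2 and apoc2, at 1559 ± 68.8 FPKM. Within the stretch apoc4 stood at 37.6 ± 4.74 FPKM, so neighbours on the same stretch ranged widely. The paralogs apoa4a, at 752 ± 34.3 FPKM, and apoea lie beside each other on chr19:10845953-10859694. The chitinases chia.1 to chia.3 lie on chr11:23993298-24016813.

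Chymotrypsin genes ctrb1 at 7539.5 ± 315 FPKM, zgc:136461 at 1674 ± 24.6 and zgc:112160 at 1218 ± 14.2 lie on chr7:35062132-35079299, and the gene name table calls them ctrb.1, ctrb.2 and ctrb.3. The remaining stretches hold genes with clone names only, named here after their values were seen. On chr18:7566007-7587290 the genes CR318588.4, CR318588.3, CR318588.2 and CR318588.1 had 1443 ± 67.7, 3246 ± 99.5, 566 ± 9.49 and 8242 ± 346 FPKM and together 1.44% of the total. RefSeq's gene table, matched by symbol, lists CR318588.4, CR318588.3 and CR318588.1 as long noncoding RNAs and has no match for CR318588.2. CR318588.1 was the 17th highest gene of the library. On chr4:8029968-8043964 the genes si:ch211-240l19.8, si:ch211-240l19.7, si:ch211-240l19.6 and si:ch211-240l19.5 had 7089 ± 78.1, 361 ± 15.3, 1963 ± 37.5 and 788 ± 38.8 FPKM, 1.09% of the total, and RefSeq lists them as protein-coding.

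Transcripts of the pancreas were among the most abundant in the library. Of 43 exocrine genes 34 reached 1 FPKM and 28 reached 100, at a median of 425 FPKM. Beside the trypsins, chymotrypsins and CELA1, the elastases ela3l and ela2l had 4205 ± 35.9 and 3108 ± 132 FPKM, and the zymogen granule protein sycn.1 had 2441 ± 40.5. The starch-cutting amylase amy2a had 534 ± 21.3 FPKM. The acinar transcription factor ptf1a stood at 4.79 ± 1.39 FPKM. These enzymes are made by acinar cells, not by enterocytes, and how much pancreatic tissue was taken along with the gut was not measured.

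Islet hormones came with them. Insulin (ins) had 247 ± 18.6 FPKM, the proglucagon gene gcga 22.9 ± 2.65, the somatostatin gene sst2 42.5 ± 6.04 and the islet regulator pdx1 3.44 ± 0.939. The ratio of prss1 to ins was 39.3. Proglucagon and somatostatin are also made by enteroendocrine cells of the gut, so their division between islet and gut cannot be told apart here. All 10 defining markers of the exocrine and endocrine pancreas exceeded 1 FPKM. On the whole endocrine pancreas list, however, 10 of 26 genes (38.5%) reached 1 FPKM, at a median of 0.541 FPKM. That share is near the 38.4% of all genes and below that of protein-coding genes.

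Liver transcripts were present, at a lower list median than the exocrine ones. Most vitellogenins, also made by the liver, have no usable level and are given below. The liver form of fatty acid binding protein, fabp10a, had 1139 ± 37.5 FPKM, transferrin (tfa) 1776 ± 49.6, serpina1 203 ± 8.41, the fibrinogen chain fgb 148 ± 7.58 and ambp 130.1 ± 8.99. The 5 defining markers ranged from 130.1 to 1776 FPKM, and 53 of 55 genes on the liver list reached 1 FPKM at a median of 36.4. The highest gene of that list was apoa2, at 2409 FPKM, which was counted with the lipoprotein genes. The gut form fabp2 stood 4.61-fold above fabp10a. The pair set to mark the biliary tract stood near 1 FPKM, with the bile duct regulator sox9b at 1.39 ± 0.363. The other, the bile salt exporter abcb11b at 0.934 ± 0.176 FPKM, is a gene of liver cells. The liver cell importer slc10a1 had 0.067 ± 0.224 FPKM, so not every gene of liver cells stood high.

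Vitellogenins, yolk proteins made by the liver of egg-laying females, were also in the library. The genes vtg2 and vtg3 had 2326 ± 10.4 and 408 ± 18.3 FPKM. The levels of vtg1, vtg4, vtg5, vtg6 and vtg7 are not usable: their rows, and 4 more on the same stretch of chromosome 22, were set to 0 by Cufflinks because too many reads fell there (status HIDATA). Markers of the ovary itself were at or near 0, with zp3b at 1.45 ± 1.01 FPKM, zar1 at 0.23 ± 0.408, ddx4 at 0.0637 ± 0.141 and gdf9 at 0.0292 ± 0.0584. The sex of the fish is not given in the labels.

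Defining markers of other neighbouring organs were low or listed at 0, though some lists also held higher genes. Surfactant genes of the swim bladder, sftpbb and sftpba, had 16.4 ± 1.51 and 8.07 ± 1.23 FPKM. Skeletal muscle markers mylpfa, ckma and myl1 had 6.56 ± 1.13, 2.96 ± 0.7 and 1.46 ± 0.611 FPKM, while the enolase eno3 of the same list had 840.4 ± 36.8. The adipose markers plin1 and adipoqb were listed at 0, yet 10 of 16 genes (62.5%) of the adipose list reached 1 FPKM, at a median of 5.72. Over all genes these were 38.4% and 0.254 FPKM. The adipose list was led by cfd (complement factor D) at 484 ± 12.8 FPKM and gpd1b, a glycerol-3-phosphate dehydrogenase, at 169 ± 9. The photoreceptor gene rho, the neuronal gene gad1b, the testis genes tssk6 and dmrt1, the heart gene nppa and the kidney gene pax8 were listed at 0. The myelin gene mbpa stood at 0.0881 ± 0.524 FPKM and its paralog mbpb at 25.9 ± 2.03, the highest on a brain and eye list where 2 of 24 genes reached 1 FPKM. The skin keratin krt5 stood at 3.79 ± 0.711, while the other skin markers tp63 and evpla had 0.298 ± 0.232 and 0.00635 ± 0.0179. On the skin and gill list 8 of 24 genes (33.3%) reached 1 FPKM, below the 38.4% of all genes.

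**Figure D5:**
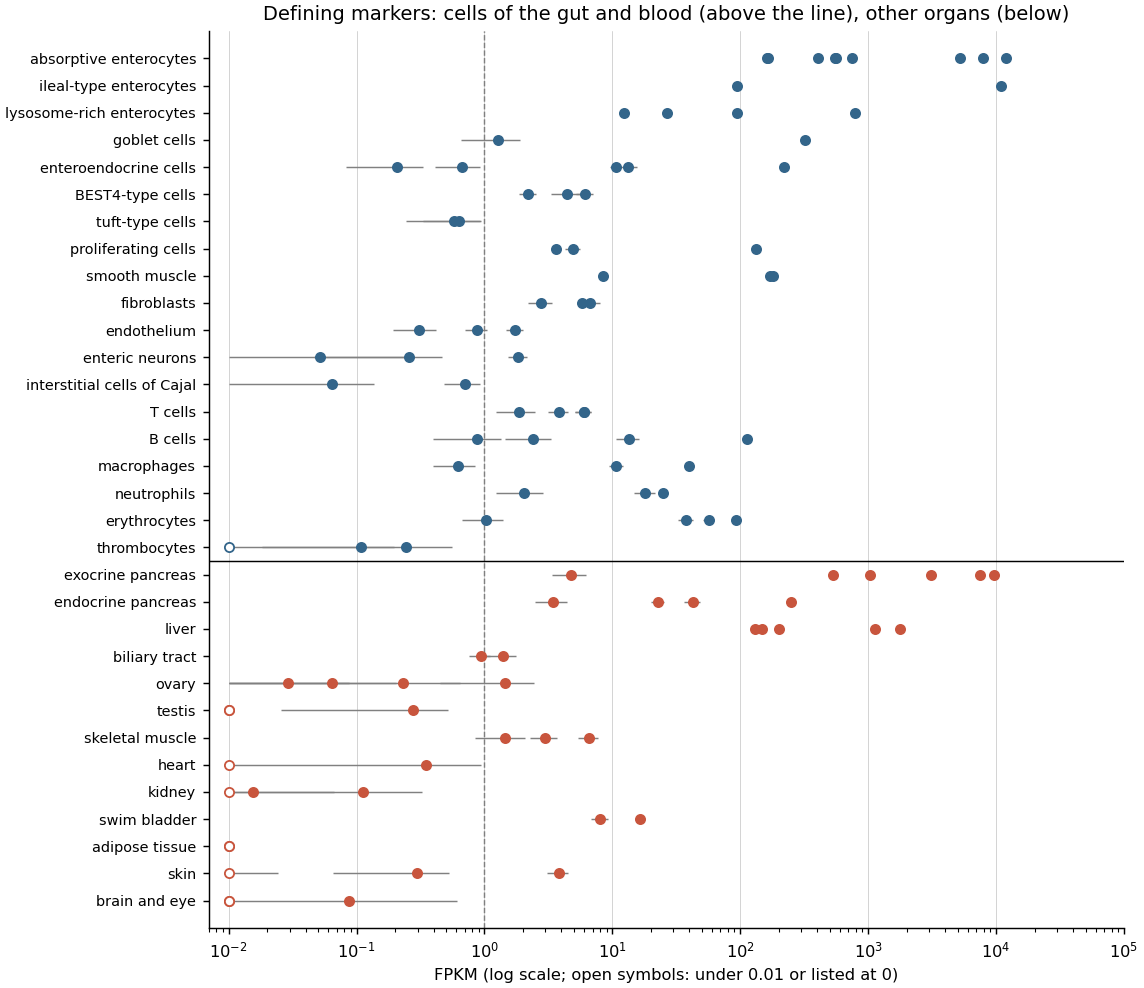
FPKM of the defining markers of gut and blood cell types (above the line) and of other organs (below) on a log scale, with deposited 95% intervals as lines and open symbols for levels under 0.01 FPKM or listed at 0. Exocrine pancreas markers, up to 9710.5 FPKM, and liver markers, from 130.1 to 1776 FPKM, stand with the enterocyte markers, apart from ptf1a at 4.79. The defining markers of ovary, testis, kidney, heart, adipose tissue and brain stay near or below 1 FPKM.

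Genes whose symbol in the files is a clone name or number, or marks 1 of many copies, were common but mostly low. There were 13577 of them, with 10.7% of all FPKM, and 117 reached 100 FPKM. This count goes by the form of the symbol and takes in genes put in another class above, CELA1 among them. The 8.75% given with the classes leaves those out. Among the 100 highest genes, 86 matched a protein-coding gene of RefSeq, 2 a long noncoding RNA and 1 a ribosomal RNA, while 11 found no match by symbol. That ribosomal RNA gene, zgc:158463, had 3014 ± 26.3 FPKM in a library made from poly(A) RNA. A gene with a high level can still rest on few reads: sat1a.2, a polyamine acetyltransferase gene, was listed at 2492 FPKM with an interval from 0 to 8339.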

How the data were processed

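Poly(A) RNA was prepared with NEBNext kits from 1 microgram of total RNA of RIN above 7 and sequenced in paired reads of 150 bases, per the labels. FastQC 0.11.5, TopHat2 2.1.0 and build GRCz11 are named in the submitters' processing notes. Per the file headers, the authors deposited FPKM from Cufflinks with 95% intervals. The version and options of Cufflinks and the strandedness are not given in these sources, and overlapping genes on opposite strands cannot be told apart.

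The control group was taken from the treatment label. Of 32661 rows, 9 did not have status OK and were left out, and 259 rows of 117 identifiers were summed per identifier, with their half-widths added in quadrature. No log scale or pseudocount was used, and the read totals are unknown. From the interval, which spans 2 SD on each side, the squared ratio of level to SD gave an effective number of fragments, with a median of 179.5 for genes at 1 FPKM or more. The alternatives tried changed the total, the scale, the rows summed, the status and the pairs taken. The steps were checked on simulated data (Python 3.11.15, pandas 2.3.3).

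Gene lists, families and markers were chosen with earlier results of these data known, and 94.3% of the 2134 listed symbols matched. Names were drawn, not in full, from the 50 highest genes, up to 6 of the highest members of each list, all defining markers, family members, and the leading a/b pairs (15 by sum and 10 near-exclusive). Named outside this rule, after their values were seen, are apoc2, apoc4, cyp8b1, mt-nd5, mt-nd6, slc11a2, slc51a, sycn.1, sat1a.2, zgc:158463 and the clone-named genes of 3 chromosomal stretches. The pair clta and cltb, given as an example of symbols, lies outside it too. Symbols are those of the files, and 89.8% of identifiers were in the gene name table. Kinds of gene come from RefSeq's table for GRCz12tu, matched by symbol, with no coordinates used from it. A few items are not reported here.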

Additional observations from a re-analysis of the deposited data

How the results depend on the processing

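With mitochondrially encoded genes left out of the total, ribosomal proteins held 21.7% of FPKM, exocrine pancreas genes 9.16% and lipid genes 9.60%. Without loci under 500 bases the shares were 6.67% for mitochondrially encoded genes, 20.3% for ribosomal proteins, 8.57% for the pancreas and 8.98% for lipid genes. Leaving out mt-atp8 alone, an alternative chosen after seeing the data, gave 7.03%, 20.2%, 8.52% and 8.92% in the same order. These settings change the total, which moves every share.

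As shares of effective fragments instead of FPKM, mitochondrially encoded genes held 5.96%, ribosomal proteins 4.73%, exocrine pancreas genes 7.39% and lipid genes 4.36%, and 489 genes held 50%. That scale also reflects gene length and the half-width of 4% to 5% that many high genes carry, and 16 of 55 families had another leader on it, against 0 with the highest row of each identifier in place of the sum. Pairs in which 1 copy held 90% or more numbered 473 of 1165 (40.6%) at a summed level of 5 FPKM or more, and 314 of 736 (42.7%) among pairs with 1 shared symbol in the gene name table, an alternative added after seeing the data. The 26 other alternative values of these shares and counts stayed within the deposited intervals or, for counts, within 1.5 times. They include the 806 of 1778 pairs by effective fragments. Those with rows of every status could not differ, because the added rows are listed at 0, so they tell nothing about the status. With the highest row of each identifier the leader's share stayed within its interval in all 55 families. In effective fragments it left the interval in 39, and the 16 that stayed include families with intervals too wide to tell, such as gut mucins, where muc5.3 held 29.0% of the effective fragments beside 98.0% of the FPKM.

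The alternative by protein identity of the pairs was not run. No paired analysis was possible because the control group is 1 library. Depth limits low genes: of genes at 1 FPKM or more, 4266 rested on fewer than 100 effective fragments and 392 on fewer than 10, and 11037 had the lower bound of their interval at 1 FPKM or more.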

Other observations

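Protein turnover and stress genes formed a further layer of the control-fed intestine. Proteasome subunits were nearly all present, with 47 of 48 at 1 FPKM or more and a median of 75.2 FPKM, led by the activator psme1 at 329 ± 16.3 and the subunit psmb4 at 316 ± 9.83. Of the cytosolic chaperones, hspa8, the constitutive form of heat shock protein 70, had 1330.0 ± 53.3 FPKM, and the stress-induced hsp70.3 had 2.87 ± 0.542. The constitutive hsp90ab1 had 854 ± 36 FPKM and hsp90aa1.2 had 10.9 ± 1.12.

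Among immediate early and stress response genes, 41 of 46 reached 1 FPKM. The transcription regulator tsc22d3, which glucocorticoids raise in mammals, had 274 ± 13.1 FPKM and the kinase sgk1 had 112 ± 5.8. The fish had been without feed for 24 hours, and levels in the fed state were not measured.

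Of mucosal defence genes, the lectin itln2 had 188 ± 6.18 FPKM at the higher of its 2 identifiers and the lysozyme lygl1 had 122 ± 7.07. Antimicrobial genes reached 1 FPKM in 23 of 39 cases (59.0%), beside 38.4% of all genes.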
